A study of Mus musculus with 2 samples.

Results

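The 6 miRNA genes described here have been studied in hippocampal synaptic plasticity, and were followed through small RNA libraries of juvenile mouse hippocampus. They are Mir135a-1, Mir135a-2, Mir135b, Mir188, Mir384 and Mir501. They were chosen by gene name in the GENCODE M21 annotation, with earlier results of these data known, and they are 6 of the 2202 miRNA genes counted. MicroRNA sequencing was done on total RNA below 30 bases in length, in 2 libraries of 1 group. Both libraries came from male mice of the strain B6CASTF1/J, a first-generation hybrid of C57BL/6J and CAST/EiJ, at 25 days of age. The tissue label reads layer of hippocampus, and the labels name no treatment, mutation or second group. The labels give the libraries separate biosample entries and a common donor entry, so the spread between them may be partly technical.

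A miRNA is a short RNA that is cut from a hairpin precursor and guides Argonaute proteins to messenger RNAs. Pairing runs mainly through the seed, bases 2 to 8 of the mature strand. In hippocampal neurons, miRNAs repress messenger RNAs near synapses, and the strengthening (long-term potentiation) or weakening (long-term depression) of a synapse changes which of them are made or released. miR-135 has been studied in the spine shrinkage of long-term depression, where complexins are its targets. miR-188 rises with potentiation and represses the semaphorin receptor neuropilin-2. miR-384-5p acts in the late maintenance of potentiation through the kinase RSK3, and miR-501-3p represses the glutamate receptor subunit GluA1 in dendrites.

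The mature strands of these genes are shown because they decide which reads can be counted for a gene and which targets a gene could share with others. All 6 genes matched the RefSeq miRNA table (build GRCm38.p6, the assembly called mm10), which lists both strands except for Mir135b, where miR-135b-5p was not matched and was not analysed here. Each line runs 5′ to 3′, and capitals mark the seed.
miR-501-3p: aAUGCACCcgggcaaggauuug
miR-501-5p: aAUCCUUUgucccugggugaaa
miR-188-5p: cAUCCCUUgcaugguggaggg
miR-188-3p: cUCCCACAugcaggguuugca
miR-384-5p: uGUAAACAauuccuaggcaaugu
miR-384-3p: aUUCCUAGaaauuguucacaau
miR-135a-5p: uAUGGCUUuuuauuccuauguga
miR-135a-1-3p: uAUAGGGAuuggagccguggcg
miR-135a-2-3p: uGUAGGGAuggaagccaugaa
miR-135b-3p: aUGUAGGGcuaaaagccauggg

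The strands are 21 to 23 bases long. The deposited table counts reads per precursor gene and does not separate the strands of a hairpin, so every level below is the sum of both. miR-135a-5p occurs in full in both Mir135a-1 and Mir135a-2. These precursors share an unbroken stretch of 24 bases, and a read that lies wholly within it fits both places. Reads aligned to several places were held apart from the gene counts and were 43.6% of all reads in replicate 1 and 43.2% in replicate 2. The levels of both Mir135a genes therefore leave out such reads and are uncertain. How many of them were miR-135a was not measured. The 3p strands of these genes differ, by A2G, U10G, G12A, G17A, G20A and C21A from miR-135a-1-3p to miR-135a-2-3p, counted from the 5′ end. None of the other mature strands listed occurs in another counted gene, and the longest stretch shared with another miRNA gene was 14 bases for Mir135b and Mir501 and 12 bases for Mir188 and Mir384.

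Sense-strand gene counts summed to 5183641 in replicate 1 and 5871233 in replicate 2, and levels are given as counts per 1000000 of that total (CPM). Intervals are exact 95% intervals and cover counting error only. A gene is called detected where each library gave it 10 counts or more. Of 12 neuron-enriched marker genes 9 were detected, led by Mir132, and their summed level was 36122 CPM in replicate 1 and 39524 CPM in replicate 2. The copies of miR-124, a defining neuronal miRNA, were at or near 0, at 0 to 3.09 CPM in any library. Each pair of these precursors shares a stretch of 31 or 32 bases, longer than a mature strand, so their counts leave out reads that fit several copies and do not measure the level of miR-124. Markers of other cells were lower in sum, but their lists were shorter, so the sums do not rank cell types. The median of the genes' mean levels was 817 CPM in the neuron list, 1728 CPM for oligodendrocytes and 2787 CPM for endothelium. In the other lists the median was below that of the neuron list. Markers of oligodendrocytes (2 of 3 detected, led by Mir219a-2) summed to 5250 and 6676 CPM, and those of endothelium (1 of 2), all from Mir126a, to 5300 and 5849 CPM. The microglia and leukocyte list (4 of 4) summed to 1273 and 1021 CPM, led by Mir150, the choroid plexus list (2 of 4) to 741 and 675 CPM, led by Mir204, and red blood cell genes (2 of 2) to 21.4 and 33.7 CPM, led by Mir451a. The muscle markers Mir1a-1 and Mir133b were at 0, and Mir206 had 76.6 and 142 CPM. The part of such cells in the results below was not tested, and in bulk tissue fewer cells of a type and less RNA per cell cannot be told apart.

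All 6 plasticity genes were detected, against 20.2% of all 2202 genes. The members were chosen as miRNAs studied in hippocampus, with earlier results of these data known, so this contrast is not a test. Together they took 0.182% of the gene-assigned counts in replicate 1 (0.178 to 0.186) and 0.181% in replicate 2 (0.177 to 0.184). The mean was 0.181% ± 0.00082 (SD, n = 2). The 3 genes on the X chromosome carried nearly all of this, at 96.4% and 95.9% of the members' counts, and the 3 miR-135 genes carried 3.58% and 4.13%. The counts of the Mir135a pair leave out reads that fit both genes, so this split holds for assigned reads only.

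Mir501, whose 3p strand represses GluA1, was the most abundant member. It lies at chrX:7241243-7241351 on the minus strand of mm10 (ENSMUSG00000076251.1), in an intron of Clcn5, the gene of an endosomal chloride and proton exchanger. It had 6875 counts or 1326 CPM in replicate 1 (1295 to 1358) and 7324 counts or 1247 CPM in replicate 2 (1219 to 1276). Its mean of 1287 ± 55.8 CPM (SD, n = 2) ranked 88 of the 2202 genes. The library values differed little, with an SD of 4.33% of the mean, although their intervals did not overlap.

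Mir188, the miRNA that rises with potentiation, is also intronic in Clcn5, at chrX:7247989-7248056 on the minus strand (ENSMUSG00000065398.1). It had 1409 counts or 272 CPM in replicate 1 (258 to 286) and 1825 counts or 311 CPM in replicate 2 (297 to 325). The mean was 291 ± 27.6 CPM (SD, n = 2), at rank 158. Replicate 2 was the higher library, and the intervals did not overlap.

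Mir384, of the late phase of potentiation, lies elsewhere on the X chromosome at chrX:105344282-105344369 on the minus strand (ENSMUSG00000065499.1). No annotated gene holds it. The long noncoding gene 5330434G04Rik lies 3912 bases upstream on the same strand. Mir384 had 810 counts or 156 CPM in replicate 1 (146 to 167) and 1028 counts or 175 CPM in replicate 2 (165 to 186). Its mean of 166 ± 13.3 CPM (SD, n = 2) ranked 176, and the library intervals overlapped.

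The miR-135 genes were the lowest in assigned counts, and those of the Mir135a pair leave out reads that fit both genes. Mir135a-2 lies in an intron of the long noncoding gene Rmst at chr10:92072086-92072185 on the minus strand (ENSMUSG00000065524.1), and had 150 counts or 28.9 CPM in replicate 1 (24.5 to 34.0) and 218 counts or 37.1 CPM in replicate 2 (32.4 to 42.4). Mir135b lies in an intron of Lemd1 at chr1:132198088-132198184 on the plus strand (ENSMUSG00000065435.1), where the gene AC124108.1 also overlaps it, and had 149 counts or 28.7 CPM and 185 counts or 31.5 CPM. Mir135a-1 lies at chr9:106154124-106154213 on the plus strand (ENSMUSG00000065407.1), in an intron of the noncoding gene D030055H07Rik and opposite an untranslated exon region of Glyctk, the glycerate kinase gene. It had 39 counts or 7.52 CPM in replicate 1 (5.35 to 10.3) and 35 counts or 5.96 CPM in replicate 2 (4.15 to 8.29). For all 3 genes the intervals of the libraries overlapped. The means were 33.0 ± 5.79, 30.1 ± 1.96 and 6.74 ± 1.10 CPM (SD, n = 2), at ranks 244, 250 and 343. No read of any of the 6 members fell on the opposite strand in either library.

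**Figure D1:**
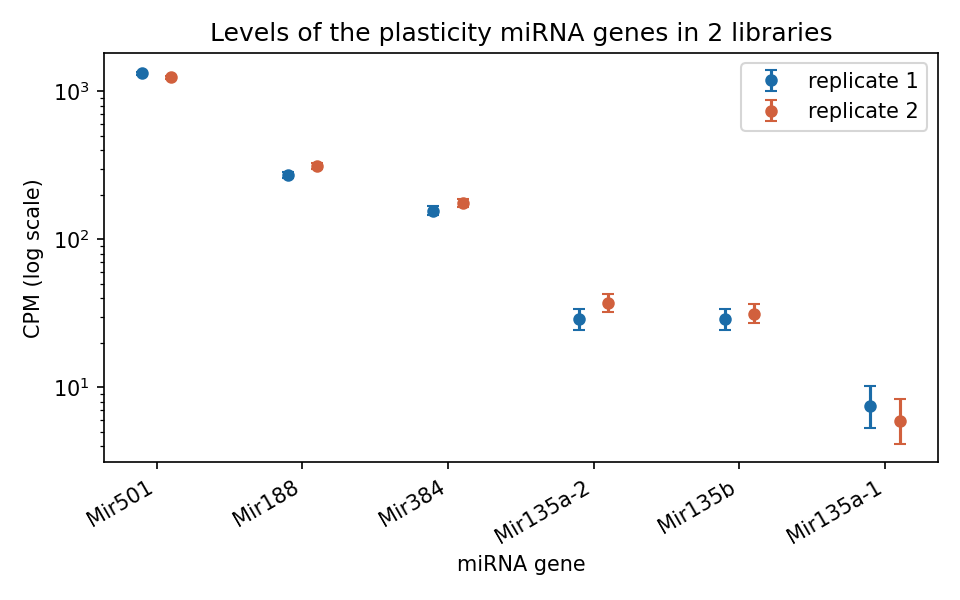
Level of each of the 6 genes in CPM, on a log scale, in replicate 1 and replicate 2; points are library values and bars are exact 95% counting intervals. Mir501 stands at 1326 and 1247 CPM, Mir188 and Mir384 lie between 156 and 311 CPM, Mir135a-2 and Mir135b overlap, and Mir135a-1 is lowest.

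The order of the levels was Mir501, Mir188, Mir384, Mir135a-2, Mir135b and Mir135a-1, in both libraries. The step from Mir501 to Mir188 was 996 ± 83.3 CPM (SD of the gap, n = 2), and the ratio of their counts was 4.88 in replicate 1 (4.61 to 5.17) and 4.01 in replicate 2 (3.81 to 4.23). Mir188 stood above Mir384 by 126 ± 14.3 CPM, and Mir384 above Mir135a-2 by 133 ± 7.52 CPM. Mir135a-2 and Mir135b did not differ beyond their spread, with a gap of 2.91 ± 3.84 CPM and count ratios of 1.01 (0.797 to 1.27) and 1.18 (0.964 to 1.44). Mir135b stood above Mir135a-1 by 23.4 ± 3.06 CPM, although the counts of the Mir135a pair leave out shared reads. A read was taken to cover a whole mature strand, so these levels were treated as per molecule and were not scaled to gene length. Read lengths were not examined. Per kilobase of annotated gene the order was the same, from 11806 CPM for Mir501 to 74.9 CPM for Mir135a-1. With 2 libraries the smallest p that a paired permutation test can reach is 0.5, and none was run.

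The genes most like each member in level were taken as the 3 nearest in log2(CPM + 1) over the 2 libraries, by straight-line distance among genes with a mean of at least 10 counts. Mir501 was nearest to Mir666 at a distance of 0.13, then Mir222 and Mir7689. Mir188 was nearest to Mir376c (0.09), Mir488 and Mir3475, and Mir384 to Mir16-1 (0.13), Mir669o and Mir490. Among the miR-135 genes, Mir135a-2 lay nearest to Mir6236 (0.14), with Mir135b next at 0.23 and Mir181a-2 after it. Mir135b lay nearest to Mir301 (0.10), Mir193a and Mir103-2, and Mir135a-1 to Mir6240 (0.13), Gm23935 and Mir6915. With only 2 libraries of 1 tissue, this likeness is one of level in assigned counts. Mir16-1, Mir181a-2 and Mir103-2 have copies by name, and whether their counts leave out shared reads was not examined.

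Mir501 and Mir188 are members of a cluster of 5 miRNA genes intronic in Clcn5, spanning 10815 bases, and all 5 were detected. Whether all lie in the same intron was not examined. In the order of transcription the genes are Mir532, Mir188, Mir362, Mir501 and Mir500, and Mir188 begins 441 bases after the start of Mir532. Their summed level was 3077 CPM in replicate 1 and 2852 CPM in replicate 2, with a mean of 2964 ± 159 CPM (SD, n = 2). The levels were very unequal. Mir501 took 43.4% ± 0.451 of the cluster's counts, Mir532 39.3% ± 4.01, Mir188 9.87% ± 1.46, Mir500 6.71% ± 1.84 and Mir362 0.721% ± 0.256. Mir362, 630 bases from Mir501, had 86 and 151 counts, so that the count of Mir501 was 79.9-fold (64.6 to 100.1) and 48.5-fold (41.3 to 57.4) that of Mir362. Mir532, 345 bases from Mir188, had 1296 and 1039 CPM, which is 4.77-fold (4.50 to 5.05) and 3.34-fold (3.17 to 3.53) the level of Mir188.

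**Figure D2:**
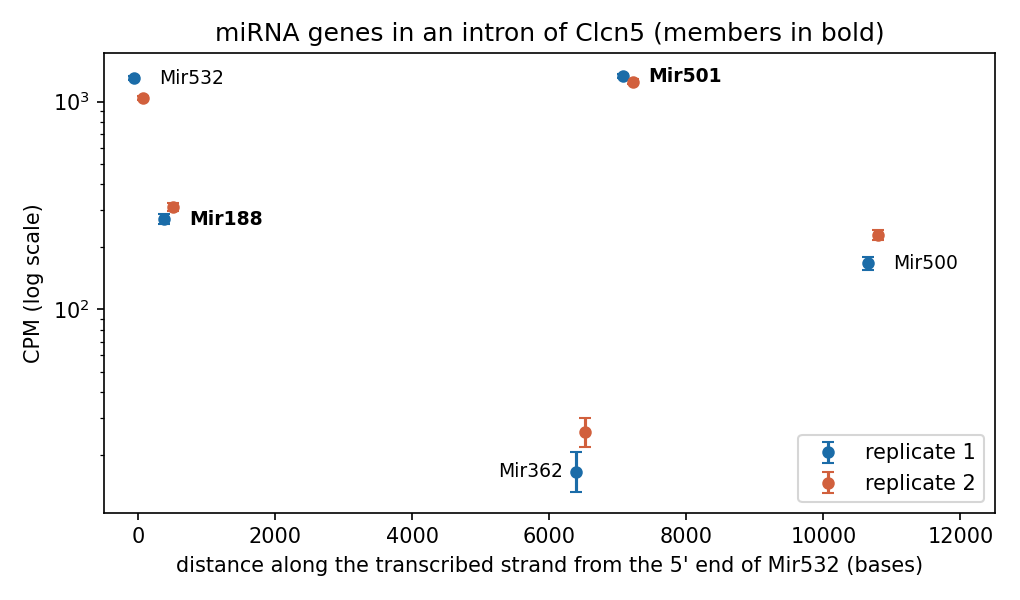
CPM (log scale) of the 5 miRNA genes intronic in Clcn5 against distance in bases along the transcribed strand from the start of Mir532. Points are library values, bars are exact 95% counting intervals, and Mir188 and Mir501 are in bold. Neighbouring genes differ widely in level, as Mir501 and Mir362 do, and no order along the cluster is seen.

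Which other counted genes carry the same seed? The search covered only mature strands in the RefSeq table, in which the 5p strands of Mir30b, Mir30d and Mir135b were not matched. Among the listed strands 5 genes had the seed of miR-384-5p, GUAAACA, which is that of the widely expressed miR-30 family. The strands are shown to place the identity.
miR-384-5p: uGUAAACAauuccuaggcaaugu
miR-30a-5p: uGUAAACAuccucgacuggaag
miR-30e-5p: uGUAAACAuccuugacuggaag
miR-384-5p and miR-30a-5p are identical over the first 8 bases and at 12 of 22 positions in all. The first difference is A9U. Mir30a was the highest of these 5 genes at 3483 ± 245 CPM (SD, n = 2), followed by Mir30e at 2148 ± 639 CPM and Mir30c-2 at 217 ± 39.8 CPM. Mir384 took 2.33% of the summed counts of these 5 genes in replicate 1 and 3.14% in replicate 2. By gene name the miR-30 family also holds Mir30d, the highest of its 6 counted genes at 8181 ± 1376 CPM, and Mir30b, at 89.0 ± 7.57 CPM. Of the sum of Mir384 and all 6 genes named Mir30, Mir384 took 1.11% in replicate 1 and 1.18% in replicate 2. Mir384 lay below Mir30c-2 and above Mir30c-1 (131 ± 22.9 CPM) in both libraries. Both Mir30c genes yield miR-30c-5p, so their counts may leave out shared reads.

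The seed of miR-501-3p, AUGCACC, occurred in 1 other counted gene, its cluster neighbour Mir500.
miR-501-3p: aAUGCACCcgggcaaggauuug
miR-500-3p: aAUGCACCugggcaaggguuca
The strands match at 18 of 22 positions and differ by C9U, A18G, U21C and G22A, from miR-501-3p to miR-500-3p. Mir501 took 88.9% of the counts of the pair in replicate 1 and 84.5% in replicate 2, with 1326 and 1247 CPM against 166 and 228 CPM for Mir500. On the 5p side, miR-501-5p shares its first 7 bases with miR-500-5p and miR-362-5p, and both carry U8G, which takes them out of its seed.

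miR-188-5p shares its seed with 1 other counted gene, Mir7061 (through its 3p strand), which had 13 counts in replicate 1 and 5 in replicate 2. Mir188 took 99.1% and 99.7% of the counts of this pair. Among the listed strands the seed of miR-135a-5p was found in the Mir135a pair alone, whose summed level was 36.5 CPM in replicate 1 and 43.1 CPM in replicate 2. These counts leave out reads that fit both genes, so they do not measure the level of miR-135a-5p. With Mir135b, taken by name, the sum of the miR-135 genes was 65.2 and 74.6 CPM. Within the pair the count of Mir135a-2 was 3.85-fold (2.69 to 5.62) that of Mir135a-1 in replicate 1 and 6.23-fold (4.34 to 9.17) in replicate 2. This ratio likewise leaves out reads that fit both genes. The 3p seeds of the miR-135 genes differ from each other, and none of them occurred in another counted gene of the table. The same held for the seeds of miR-188-3p, miR-384-3p and miR-501-5p.

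**Figure D3:**
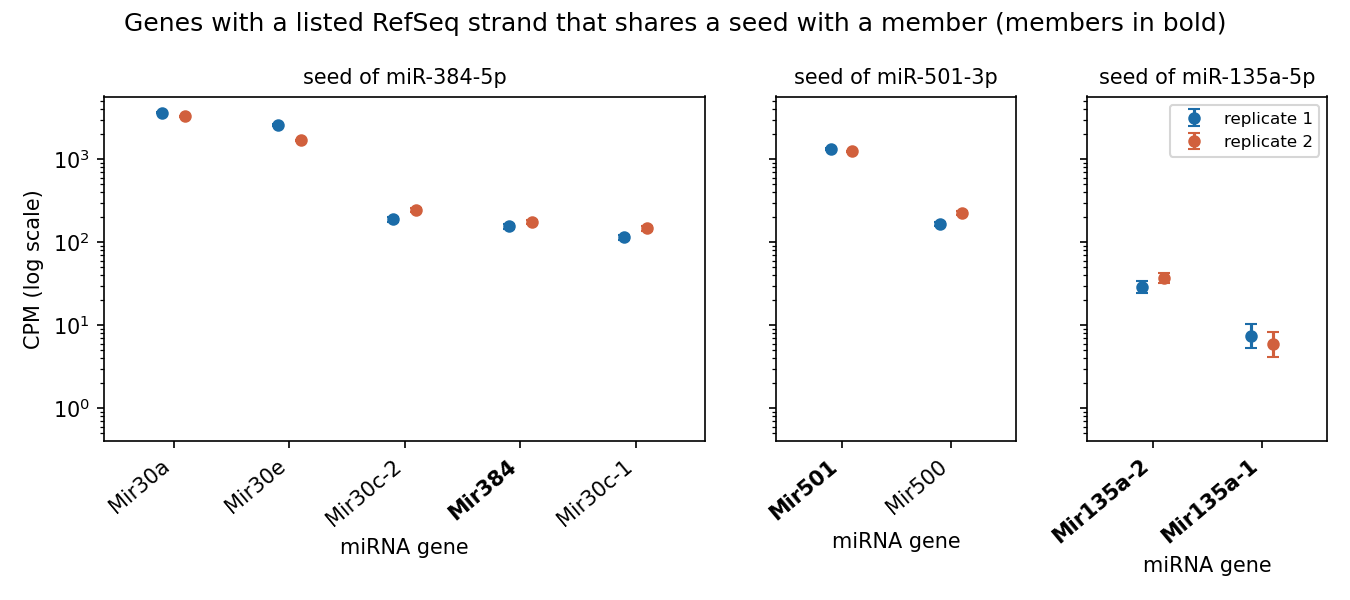
CPM, on a log scale, of the counted genes with a strand in the RefSeq table that carries the seed of miR-384-5p, miR-501-3p or miR-135a-5p, with members in bold and without Mir30b, Mir30d and Mir135b; points are library values and bars are exact 95% counting intervals. Mir384 lies far below Mir30a and Mir30e, whereas Mir501 lies above Mir500. The counts of the Mir135a pair leave out reads that fit both genes.

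How far did the members differ between the libraries? All 6 differed by less than 1.5-fold, as did 72.2% of the 291 genes with a mean of at least 100 counts, a minimum that 5 of the 6 members reached. The log2 ratio of replicate 2 over replicate 1, on log2(CPM + 1), had a median size of 0.18 without regard to sign over the members. It was 0.36 over the 472 genes with a mean of at least 10 counts. In a 2-sided exact binomial test of the counts, with Benjamini-Hochberg adjustment over those 472 genes, 4 of 6 members differed, 3 higher in replicate 2 and 1 higher in replicate 1. Over all genes tested 59.7% differed, 39.4% higher in replicate 2 and 20.3% higher in replicate 1, so the members' share was near the background. The test weighs read sampling between this pair of libraries only, and each read is treated as a separate molecule. The spread between libraries is not in it, and edgeR put that at a common biological coefficient of variation of 0.320 over all genes tested.

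Mir188 was 1.14-fold higher in replicate 2 (1.07 to 1.23), with an adjusted p of 0.000334 in the exact binomial test. Mir384 was 1.12-fold higher there (1.02 to 1.23, adjusted p = 0.0282 in the same exact test). Mir135a-2 was 1.28-fold higher (1.04 to 1.59, adjusted p = 0.0322, exact test). Mir501 was 1.06-fold higher in replicate 1 (1.03 to 1.10, adjusted p = 0.000585, exact test). Mir135b, at 1.10-fold (0.879 to 1.37) in replicate 2 over replicate 1, and Mir135a-1, at 0.792-fold (0.487 to 1.28), did not pass the test. For Mir135a-1, with 35 and 39 counts, a change of the size seen was not detectable at this depth.

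These calls rested on the scaling. The trimmed mean of M-values (TMM) as the scaling shifts every log2 ratio by -0.17, and then Mir501 alone of the members passed, with a log2 ratio of -0.26 against -0.09 (adjusted p = 4.58e-26, exact test). Over all genes tested 58.9% passed under TMM, 29.9% higher in replicate 2 and 29% higher in replicate 1. Under TMM the log2 ratio of Mir188 was 0.02, that of Mir384 -0.0071, that of Mir135a-2 0.18 and that of Mir135b -0.04. The directions of Mir384 and Mir135b thus turned.

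**Figure D4:**
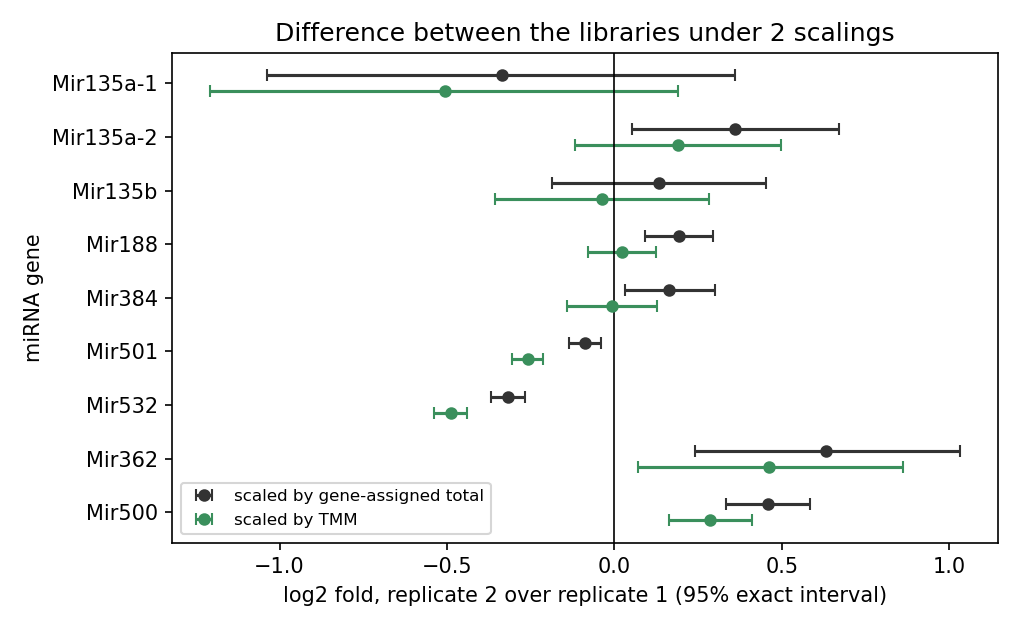
log2 fold of replicate 2 over replicate 1 for the 6 members and the other 3 genes of the Clcn5 cluster, scaled by the gene-assigned total or by TMM; bars are exact 95% counting intervals. Mir501 and Mir532 lie below 0 and Mir500 and Mir362 above 0 under both scalings, whereas the intervals of Mir188, Mir384 and Mir135a-2 hold 0 under TMM.

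The makeup of the Clcn5 cluster differed between the libraries beyond counting error. All 5 of its genes passed the exact binomial test, 3 higher in replicate 2 and 2 higher in replicate 1, against 59.7% of all genes tested. Mir532 was lower in replicate 2, with a log2 ratio of -0.32 (adjusted p = 4.47e-35, exact test), while Mir500 was higher at 0.46 (7.41e-13) and Mir362 at 0.60 (0.00221). Under TMM 4 of 5 passed, against 58.9% of all genes tested, with 2 in each direction, and Mir188 did not. The ratio of Mir501 to Mir188 does not depend on the scaling, and its intervals, given above, did not overlap between the libraries. The ratio of Mir501 to Mir500 was 7.98 (7.43 to 8.57) in replicate 1 and 5.46 (5.15 to 5.79) in replicate 2, again without overlap. These intervals too cover counting error only.

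**Figure D5:**
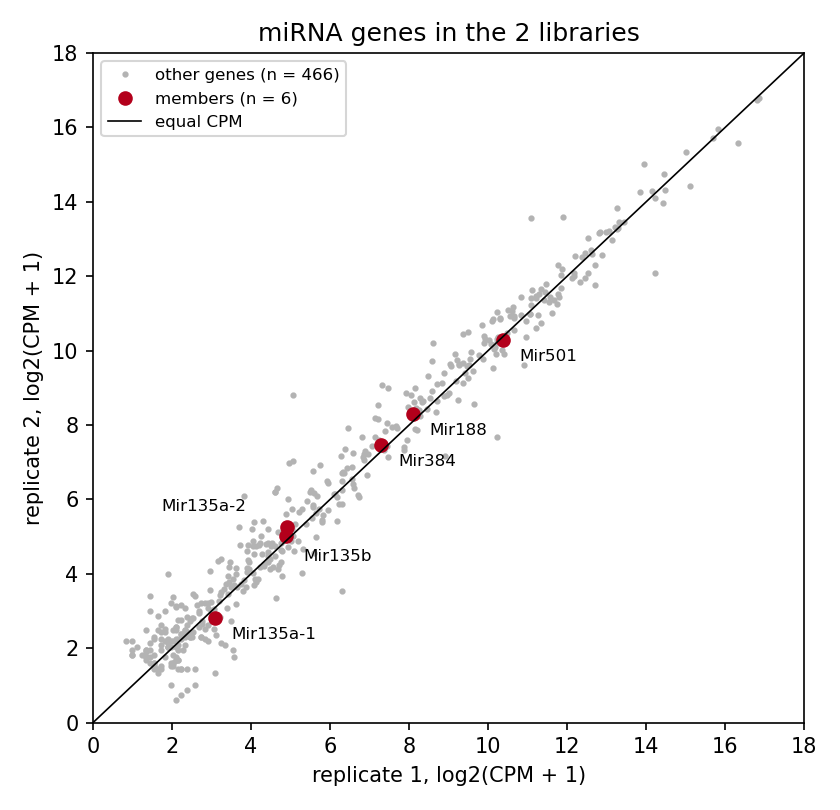
log2(CPM + 1) in replicate 2 against replicate 1 for 472 miRNA genes with a mean of at least 10 counts; the 6 members are named and the line marks equal CPM. All 6 members lie near the line, within 0.35 of it in log2 ratio.

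Beside the members, 44 other genes of miRNAs studied in plasticity were counted. Of these 39 were detected, 13 had a higher mean level than Mir501, 25 lay between Mir501 and Mir135a-1, and 6 lay lower. The list holds the miR-124 copies, whose counts leave out shared reads, and other copies by name, such as the Mir9 genes. Shared reads of the other copies were not examined. These places and the median of the list therefore hold for assigned reads only, and do not rank the mature miRNAs. The highest were Mir132, which neuronal activity induces, at 17116 ± 3460 CPM (SD, n = 2), Mir191, which has been studied with miR-135 in long-term depression, at 10718 ± 781 CPM, and Mir125a at 8342 ± 1469 CPM. The median of the list was 445 CPM and that of the 6 members 99.4 CPM, against 51.2 CPM over all 445 detected genes. Of the 40 genes of the list that were tested, 34 differed between the libraries in the exact binomial test, 21 higher in replicate 2 and 13 in replicate 1, and under TMM 18 and 16. Over all 472 genes tested 59.7% differed, and 58.9% under TMM. A mean of at least 100 counts was reached by 36 genes of the list and by 291 of the 472. The median size of the list's log2 ratios was 0.44, against 0.18 for the members and 0.36 for all genes tested. Among genes with a mean of at least 100 counts it was 0.459 for the list and 0.345 for all genes. The difference between the lists was not tested.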

How the data were processed

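The deposited tables hold whole-number read counts of miRNA genes, 1 table per library, and the text files beside them name mm10 and M21. The software used for alignment and counting is not given in the sources used here. Of the 3 count columns, the sense column was used, its strand inferred from the values. The 4 rows that name no gene were left out of totals, which kept 37.3% of the reads of replicate 1 and 36.7% of those of replicate 2. All 2202 identifiers matched GENCODE M21, which gave symbols, coordinates and precursors, and mature sequences came from RefSeq (GRCm38.p6), matched by coordinates. Counts were scaled to CPM, and log2 values carry a pseudocount of 1. Genes averaging 10 counts or more were tested between the libraries with a 2-sided exact binomial test and Benjamini-Hochberg adjustment at 0.05 (scipy 1.17.1), and intervals are Clopper-Pearson. TMM scaling and the dispersion came from edgeR 4.0.16 and alternatives from DESeq2 1.42.0 (R 4.3.3). With 1 group no quasi-likelihood coefficient exists. The binomial test was tested on simulated data with read sampling alone, so the simulation does not cover the spread between libraries. The text names all members, miRNA genes within 10 kb on the same strand, the 3 highest genes sharing a seed among strands in the RefSeq table, the 3 nearest in level, the 3 highest of the plasticity list and the highest marker of each list. Mir30b, Mir30c-1, Mir30d, the miR-124 copies, Mir1a-1, Mir133b and the genes beyond 10 kb were named after their values were seen. The members and lists were chosen with earlier results of these data known. Alternatives covered the count minimum, strand column, scaling, total, pseudocount, gene length and each library alone.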

Additional observations from a re-analysis of the deposited data

How the results depend on the processing

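Of 66 recomputed values, 45 kept their direction and call, moved by no more than the spread or, for counts of genes, stayed within 1.5 times the count reported. All 6 members stayed detected with a minimum of 1 count, in the unstranded column and in each library alone, and 5 reached 100 counts in both libraries. With reads aligned to several places in the total, the members' share of counts was 0.0835% instead of 0.181%, and their CPM values were lowered by about the same factor. It was 0.193% in the unstranded column. The number of members that differed between the libraries was 4, but 1 under TMM and 1 under DESeq2 size factors, where Mir501 alone passed. Over all 472 genes tested the number was 282 and, under TMM, 278. The log2 ratio of Mir384 turned to -0.0071 and -0.019 under these scalings and that of Mir135b to -0.038 and -0.049, against a shift of all genes by -0.17 and -0.18. The number of members that differed was 3 with no filter on low counts, where Mir135a-2 did not pass (adjusted p = 0.0521, exact binomial test). It was 4 with a mean of at least 100 counts, where Mir135a-1 was not tested, and 4 in the unstranded column. The shares over all genes in these settings, and under DESeq2 size factors, are not reported here. The order of the members held in all 5 neighbouring pairs in each library and per gene length. The coefficient of variation was 0.225 as a median of DESeq2 gene estimates, in place of 0.320. Genes with an estimate at or near the lower limit were left out of this median. No paired analysis was possible because there is 1 group. Depth limits Mir135a-1 most, with under 40 counts in each library.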

Other observations

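For members with no miRNA gene within 10 kb on their strand, the nearest one farther off was taken, after its values were seen. Mir325, 34712 bases upstream of Mir384, had 113 CPM in replicate 1 and 141 CPM in replicate 2. The count of Mir384 was 1.38-fold (1.24 to 1.53) and 1.24-fold (1.13 to 1.36) that of Mir325. Mir1251, which lies with Mir135a-2 in introns of Rmst and 64954 bases from it, had 5 counts in each library, against 150 and 218 for Mir135a-2. Mirlet7g, 24626 bases from Mir135a-1 in an intron of Wdr82, had 57434 and 63545 CPM, whereas Mir135a-1 had 7.52 and 5.96 CPM. The Mir135a-1 counts leave out reads that also fit Mir135a-2. The nearest to Mir135b, Gm22232, lies 2611090 bases away and had 0 counts in both libraries.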
